A study of Homo sapiens with 3 samples.

Results

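Messenger RNA levels of 10 growth factor receptor tyrosine kinases were described in 22Rv1 cells, an established human prostate carcinoma line grown in culture. The members were chosen by name: the ERBB receptors EGFR, ERBB2, ERBB3 and ERBB4, the insulin and insulin-like growth factor receptors INSR and IGF1R, the fibroblast growth factor receptors FGFR1, FGFR2 and FGFR3, and the hepatocyte growth factor receptor MET. Each of the 10 had 1 row among the 27024 genes counted. RNA-seq, which counts sequenced fragments of RNA per gene, was available for 3 libraries of cells of the WT genotype, numbered as replicates 1 to 3, with no added treatment named in the labels. In the study these cells were the reference for clones that lacked an enhancer on chromosome 12, and the libraries of those clones were not analysed here. All values therefore describe 1 condition. The methods speak of control clones and the results of biological replicates, so it is not settled whether the libraries came from separate clones or cultures, and p-values measure only the spread between these samples, which may be technical.

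Growth factor receptor tyrosine kinases sit in the cell membrane, bind a ligand outside the cell and act as pairs that phosphorylate each other's tails. Adaptor proteins dock on the phosphorylated tails and pass the signal to the RAS-MAPK and PI3K-AKT cascades, which drive growth and survival. In the prostate these receptors are known as routes by which signals from the stroma reach the epithelium.

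The libraries held between 35675670 and 38629080 recovered reads, and the 10 receptors took 0.0619%, 0.0628% and 0.0605% of them in replicates 1, 2 and 3. The luminal prostate markers HOXB13, KLK2, KRT8 and KRT18 were expressed, which here means 1 CPM (edgeR's library-scaled count) or more in every library. Of 4 basal markers 0 were expressed, and KRT5, KRT14 and TP63 were at 0 reads. KRT15, the remaining basal gene, averaged 10 reads or more but was below 1 CPM in at least 1 library. Among markers of other cell types, COL1A1 and LUM of 5 fibroblast genes and CD68 of 4 leukocyte genes were expressed, whereas COL1A2 and PTPRC had at most 1 read in any library. COL3A1 and DCN, the remaining fibroblast genes, averaged 10 reads or more but were below 1 CPM in at least 1 library. The remaining leukocyte genes, CD3E and LYZ, averaged fewer than 10 reads. The summed normalized counts ranged over the libraries from 429.8 to 488.1 for the fibroblast list, from 60.9 to 81.4 for the leukocyte list, from 13.5 to 24.5 for the basal list and from 0 to 1.6 for the endothelial list, of which PECAM1 could not be matched. Their part in the receptor values was not tested. RNA came from bulk cultures, so fewer expressing cells and less RNA per cell cannot be told apart.

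Transcripts of 9 of the 10 receptors were expressed, and FGFR2 was not. Over all genes counted, 47.7% were expressed by the same rule. The level of a gene in a library is its deposited normalized count, the authors' read count over the size factor of that library. Where receptors are compared with each other, the normalized count was divided by the length of the canonical transcript in kilobases (kb), since longer transcripts yield more fragments. Per kb the order was ERBB3, FGFR3, ERBB2, EGFR, INSR, MET, IGF1R, FGFR1, ERBB4 and FGFR2. The mean level per kb ranged from 1286 for ERBB3 to 22.3 for ERBB4 among the expressed receptors, beside a median of 315 over all expressed genes. ERBB3, FGFR3 and ERBB2 lay above that median and the other 6 expressed receptors below it.

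**Figure D1:**
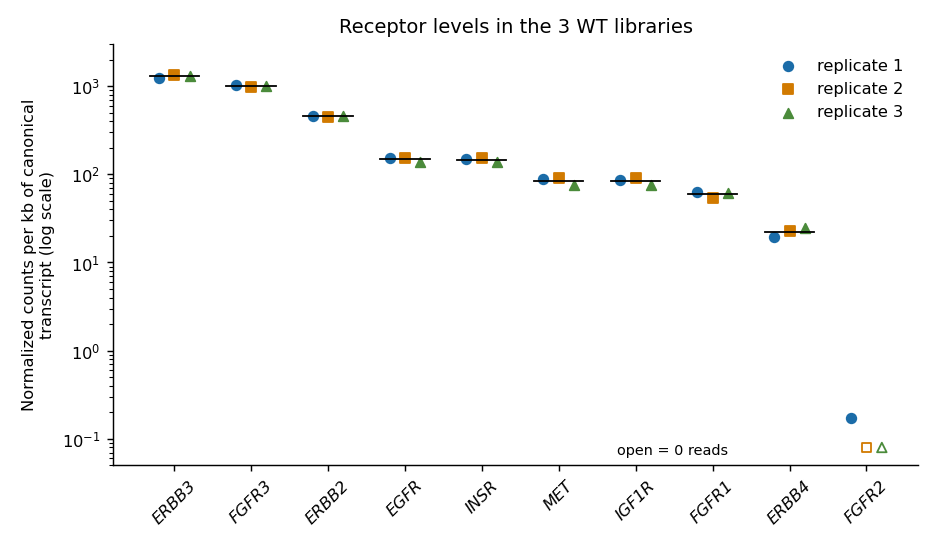
Normalized counts per kb of canonical transcript (log scale) of the 10 receptors in the 3 WT libraries. Markers are single libraries, lines are means of 3, and open markers stand for 0 reads. ERBB3 and FGFR3 lay near 1000, whereas FGFR2 had 1 read in replicate 1 and 0 in the other libraries.

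The 10 genes lie on 9 chromosomes of GRCh37. EGFR spans 55086710 to 55279321 and MET 116312250 to 116438431 of chromosome 7, both on the plus strand, with 28 and 21 exons in the canonical transcript. ERBB2 lies on the plus strand of chromosome 17 from 37844167 to 37886679 with 27 exons, and ERBB3 on the plus strand of chromosome 12 from 56470583 to 56497289 with 28 exons. ERBB4 is by far the longest gene of the set and runs on the minus strand of chromosome 2 from 212240442 to 213403565 with 28 exons. IGF1R lies on the plus strand of chromosome 15 from 99191768 to 99507759 with 21 exons, and INSR on the minus strand of chromosome 19 from 7112266 to 7294425 with 22 exons. FGFR1 (chromosome 8, 38257733 to 38326352, minus), FGFR2 (chromosome 10, 123237846 to 123357972, minus) and FGFR3 (chromosome 4, 1795020 to 1810599, plus) each have 18 exons in the canonical transcript. Other genes overlap some of these spans on either strand, and the strandedness of the counting is not given in the sources used here. On the same strand, an unnamed protein-coding gene overlaps ERBB3, and long noncoding RNA genes overlap IGF1R and FGFR1. None of these had a row among the genes counted. The microRNA genes MIR4728 in ERBB2, MIR548F2 in ERBB4 and MIR4714 in IGF1R, also on the same strand, had rows with a mean normalized count of 0. On the opposite strand, ERBB2 overlaps PGAP3 (mean normalized count 785) and MIEN1 (2260), FGFR1 overlaps LETM2 (252), and EGFR overlaps EGFR-AS1 (4.57). Reads in the shared stretches cannot be assigned with certainty.

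Among the neighbours in this order, ranges over the 3 libraries overlapped for EGFR and INSR and for MET and IGF1R. EGFR was 1.01-fold ± 0.029 of INSR (SD, n = 3) and higher in 2 of 3 libraries (exact two-sided sign-flip permutation p = 0.75). MET was 1.01-fold ± 0.016 of IGF1R and higher in 2 of 3 libraries (exact p = 0.5). Neither pair could be ordered. The other neighbours kept 1 order in 3 of 3 libraries, which gives p = 0.25, the smallest value that this exact test can reach with 3 libraries. The gaps were 1.29-fold ± 0.087 from FGFR3 to ERBB3, 2.19-fold ± 0.057 from ERBB2 to FGFR3 and 3.09-fold ± 0.27 from EGFR to ERBB2. Below these, INSR exceeded MET by 1.73-fold ± 0.067, IGF1R exceeded FGFR1 by 1.44-fold ± 0.25, and FGFR1 exceeded ERBB4 by 2.68-fold ± 0.46. The order at the top depended on which length was used: divided by the union of all annotated exons, FGFR3 (888.9) stood above ERBB3 (616.4). With that length INSR also stood above EGFR and ERBB4 above FGFR1, and 4 of 10 receptors kept their rank.

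ERBB receptors pair with one another. ERBB2 has no known ligand of its own, and ERBB3 binds neuregulins but carries a kinase domain of very low activity, so it signals through its partners. The catalytic loop of their kinase domains shows this difference, and its 27 bases are given here for the 4 genes because the most abundant ERBB transcript is the one with the altered loop. Each stretch lies in the coding part of exon 21 of the canonical transcript, at chr7:55259442-55259468 (EGFR, plus strand), chr17:37881332-37881358 (ERBB2, plus), chr12:56491599-56491625 (ERBB3, plus) and chr2:212295769-212295795 (ERBB4, minus), in GRCh37. Capitals mark the codons of the histidine, the arginine and the residue that acts as catalytic base in active kinases.
EGFR: gtgCACCGCGACctggcagccaggaac
ERBB2: gtaCACAGGGACttggccgctcggaac
ERBB3: gtgCATAGAAACctggctgcccgaaac
ERBB4: gttCATCGGGATttggcagcccgtaat
Counted from 1 at the 5′ end of the EGFR stretch, ERBB2 and ERBB3 each differed from EGFR at 7 positions and ERBB4 at 8. The change G10A, at the first base of the last marked codon, was found in ERBB3 and in neither ERBB2 nor ERBB4.

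ERBB3, the partner with the altered loop, had normalized counts of 6943.9, 7436.0 and 7277.5 in replicates 1, 2 and 3 (mean 7219.1 ± 251.2, SD, n = 3). Replicate 1 was the lowest, and the highest library was 1.07-fold of it. ERBB2, the receptor amplified in some breast cancers, had 2102.4, 2039.5 and 2108.3 (2083.4 ± 38.13). It varied least of the 9 expressed receptors, with a coefficient of variation (CV, SD over mean) of 1.83%, no larger than the 1.97% expected from counting its reads alone. EGFR, the receptor of EGF and related ligands, had 1531.9, 1532.6 and 1348.6 (1471 ± 106). Replicates 1 and 2 nearly coincided and replicate 3 lay below both. ERBB4, a neuregulin receptor with an active kinase, had 236.2, 273.3 and 299.9 (269.8 ± 31.99), with the largest CV of the expressed receptors, 11.86%.

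Per kb, ERBB3 made up 67.2% ± 0.99 of the ERBB total, ERBB2 23.9% ± 0.858, EGFR 7.76% ± 0.603 and ERBB4 1.16% ± 0.124 (SD, n = 3). The 4 shares kept this order in 3 of 3 libraries. ERBB3 was 2.81-fold ± 0.14 of ERBB2, 8.69-fold ± 0.77 of EGFR and 58.1-fold ± 5.5 of ERBB4. The last of these depended on the length used: with union exons ERBB3 was 30-fold ± 2.9 of ERBB4, and the share of ERBB4 was 2.23% ± 0.239.

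**Figure D2:**
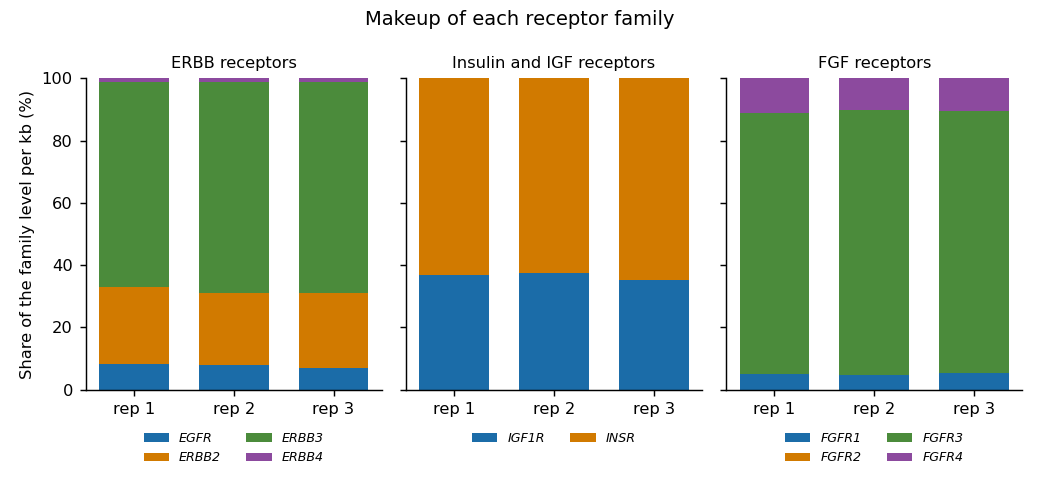
Share of each receptor (percent) in the summed level per kb of its family, for the ERBB, insulin and IGF, and FGF receptors, with 1 bar per WT library. ERBB3, INSR and FGFR3 were the largest parts of their families in 3 of 3 libraries.

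Of 11 ERBB ligands, 4 were expressed. Per kb, betacellulin (BTC, a ligand of EGFR and ERBB4) stood at 60.4 ± 3.57, HBEGF, which binds the same receptors, at 51.1 ± 5.19, TGFA, a ligand of EGFR, at 37.7 ± 5.13, and NRG3, a ligand of ERBB4, at 9.57 ± 1.77. Each stood below the receptor it was set against: BTC was 0.408 ± 0.046, HBEGF 0.347 ± 0.062 and TGFA 0.254 ± 0.031 of the EGFR level per kb, and NRG3 was 0.429 ± 0.057 of ERBB4, with the receptor higher in 3 of 3 libraries. With union exons BTC stood nearer to EGFR, at 0.657 ± 0.074 of it. Per kb, BTC and HBEGF lay above ERBB4, their other receptor, in 3 of 3 libraries. Without division by length both lay below it in 3 of 3 libraries, with mean normalized counts of 160.17 and 120.4 against 269.8. The neuregulins that bind ERBB3 were nearly without reads. NRG1 was at 0 reads in all 3 libraries, and NRG2 had 1, 0 and 17 reads in replicates 1, 2 and 3. Thus replicate 3 held nearly all NRG2 reads. Among the others, EGF had 12, 12 and 16 reads and EPGN 7, 10 and 13. AREG had 12, 1 and 8 reads, EREG 0, 5 and 2, and NRG4, a ligand of ERBB4, 30, 13 and 12. A library with 0 reads allows up to 3 reads, or between 2.36 and 2.54 normalized counts. ADAM10 and ADAM17, the proteases that release many of these ligands from the membrane, were both expressed, at 253.7 ± 7.3 and 218.2 ± 25.9 per kb.

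INSR, the insulin receptor, had normalized counts of 1403.2, 1446.2 and 1307.6 (1385.7 ± 70.94). IGF1R, which binds IGF1 and IGF2 and controls body growth, had 1052.4, 1115.4 and 918.0 (1028.6 ± 100.8). For both, replicate 3 was the lowest and replicate 2 the highest. Per kb, INSR took 63.6% ± 1.12 and IGF1R 36.4% ± 1.12 of their sum, so IGF1R stood at 0.573 ± 0.027 of INSR (3 of 3 libraries below 1).

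Of 11 IGF ligands and binding proteins, 5 were expressed. IGF1 had normalized counts of 204.6, 299.6 and 229.9, with replicate 2 the highest, and stood per kb at 0.4 ± 0.065 of IGF1R. IGF2 and the insulin gene INS were at 0 reads in all 3 libraries. IGFBP2 and IGFBP3, which bind IGFs outside the cell and limit their access to the receptor, were at 3166 ± 47 and 3152 ± 110.6 per kb. Per kb IGFBP3 exceeded IGF1 by 96.5-fold ± 20 and IGFBP2 by 96.7-fold ± 19. With union exons these folds were 61.5 ± 13 and 32.2 ± 6.4, so both the sizes and the near equality of the binding proteins held for the canonical length only. IGF2R, a scavenger that carries IGF2 to the lysosome, stood at 327.1 ± 25.5 per kb, 3.9-fold ± 0.12 of IGF1R. IGFBP1 had 31.3 ± 8.92 per kb, whereas IGFBP4, IGFBP5, IGFBP6 and IGFBP7 were below 1 CPM in at least 1 library, with at most 36 reads (IGFBP5, replicate 1).

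The fibroblast growth factor receptors showed the widest contrast within a family. FGFR3 had normalized counts of 4472.5, 4193.2 and 4263.0 (4309.6 ± 145.4), and FGFR1 had 356.3, 303.8 and 348.8 (336.3 ± 28.39). Replicate 2 was the lowest for both. FGFR2, the receptor through which stromal FGFs act on normal prostate epithelium, had 1, 0 and 0 reads, which is below the limit of 3 reads that a count of 0 allows. FGFR4, the remaining receptor of the family and not 1 of the 10, had 429.8, 363.9 and 377.9 normalized counts (390.53 ± 34.72).

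Per kb, FGFR3 took 84.4% ± 0.662, FGFR4 10.6% ± 0.5 and FGFR1 4.97% ± 0.286 of the FGFR total. FGFR3 was 7.96-fold ± 0.42 of FGFR4 and 17-fold ± 1.1 of FGFR1, in the same order in 3 of 3 libraries. With union exons FGFR3 was 11-fold ± 0.58 of FGFR4 and 45.6-fold ± 3 of FGFR1, whose share was then 1.97% ± 0.118. FGFR2 accounted for 1 of 18739 reads on the 4 genes, or 0.00534% (exact Clopper-Pearson 95% interval 0.000135% to 0.0297%, counting error only).

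The 250 bases before the canonical start sites of the highest and the lowest of these receptors are shown, since their transcripts differed most. They were read from GRCh37 at chr4:1794770-1795019 on the plus strand for FGFR3 and at chr10:123357959-123358208 on the minus strand for FGFR2. Capitals mark GGGCGG, the core of the GC box bound by factors such as SP1, on either strand.
FGFR3: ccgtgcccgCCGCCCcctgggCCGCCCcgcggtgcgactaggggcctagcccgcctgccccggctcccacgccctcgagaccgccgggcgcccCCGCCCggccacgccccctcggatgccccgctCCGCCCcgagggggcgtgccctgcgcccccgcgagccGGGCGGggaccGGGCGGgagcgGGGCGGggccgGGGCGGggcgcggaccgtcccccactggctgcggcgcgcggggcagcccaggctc
FGFR2: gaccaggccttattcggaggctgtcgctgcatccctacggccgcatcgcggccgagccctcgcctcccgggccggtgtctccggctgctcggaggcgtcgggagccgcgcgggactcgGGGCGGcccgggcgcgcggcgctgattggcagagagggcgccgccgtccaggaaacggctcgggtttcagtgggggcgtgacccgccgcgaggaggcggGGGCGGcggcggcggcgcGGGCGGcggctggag
Both windows were rich in G and C, at 86.8% for FGFR3 and 78.4% for FGFR2, against a median of 63.2% over 19874 windows of the same length before protein-coding genes. FGFR3 held 8 GC boxes and FGFR2 held 3. At least 1 such box lay before 8 of the 10 receptors, ERBB2 and ERBB3 being the exceptions, and before 59.1% of all windows. TATAAA on either strand was found before 0 of the 10 and before 9.26% of all. The observed over expected CpG ratio ranged from 0.579 (ERBB2) to 1.18 (IGF1R), with a median of 0.751 over all windows. These are matches of letters, and DNA methylation and factor binding were not measured here.

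Of 23 FGF ligands and coreceptors, 5 were expressed, and FGF17 was the only ligand among them. FGF17, which can activate FGFR3, had normalized counts of 79.0, 102.4 and 75.6 and stood per kb at 0.065 ± 0.013 of FGFR3, or 0.0294 ± 0.0057 with union exons. Its range per kb overlapped that of FGFR1. The other expressed genes were the heparan sulfate carriers SDC1 (822.4 ± 9.42 per kb) and GPC1 (109.9 ± 0.553), the receptor FGFRL1, which lacks a kinase domain (401.1 ± 22.3, or 0.4 ± 0.017 of FGFR3), and KLB, the coreceptor of endocrine FGFs (41 ± 1.43). The endocrine ligands that need such a coreceptor, FGF19, FGF21 and FGF23, were at 0 reads in all 3 libraries, as were FGF3, FGF6, FGF8, FGF16 and FGF20. FGF22 reached 24, 30 and 33 reads, FGF2 39, 29 and 11, and FGF7 15, 6 and 9. KL, the other coreceptor, had 21, 19 and 13 reads. FGF1, FGF4, FGF5, FGF9, FGF10 and FGF18 had at most 9 reads in any library.

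MET, the receptor of HGF and a driver of cell scattering, had normalized counts of 597.3, 616.1 and 521.2 (578.2 ± 50.25), with replicate 3 the lowest. MST1R, its closest relative, had 428.2, 435.8 and 392.1. Per kb MET took 49.1% ± 0.81 and MST1R 50.9% ± 0.81 of their sum, with MST1R higher in 3 of 3 libraries. The order turned with the length, since MET took 50.06% ± 0.81 with union exons and 57.96% ± 0.79 without division by length.

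HGF, the ligand of MET and commonly a product of stromal cells, was expressed in these cultures of a carcinoma line. Its normalized counts were 4367.5, 4532.5 and 4134.7 (4344.9 ± 199.9). Per kb HGF stood at 744.8 ± 34.3, which was 8.81-fold ± 0.4 of MET and higher in 3 of 3 libraries (5.58-fold ± 0.26 with union exons). Of the fibroblast markers in the same libraries, COL1A1 stood at 44.1 ± 2.91 and LUM at 60.1 ± 6.86 per kb, and COL1A2 had 0, 1 and 0 reads. MST1, the ligand of MST1R, stood at 1.15 ± 0.11 of its receptor, but at 0.757 ± 0.073 with union exons and 0.733 ± 0.07 on normalized counts, so the pair could not be ordered. The proteases that cleave HGF to its active form were present as transcripts: ST14 (matriptase) at 878.8 ± 57.8, TMPRSS2 at 389.3 ± 33.9 and HPN (hepsin) at 339 ± 23.2 per kb. Their membrane inhibitors stood higher per kb, SPINT2 at 6762 ± 171.1 and SPINT1 at 1282 ± 47.1, and SPINT2 was 7.71-fold ± 0.42 of ST14 (3.19-fold ± 0.17 with union exons). HGFAC, a secreted HGF activator, had 1, 3 and 15 reads. Of these 8 genes, 7 were expressed.

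**Figure D3:**
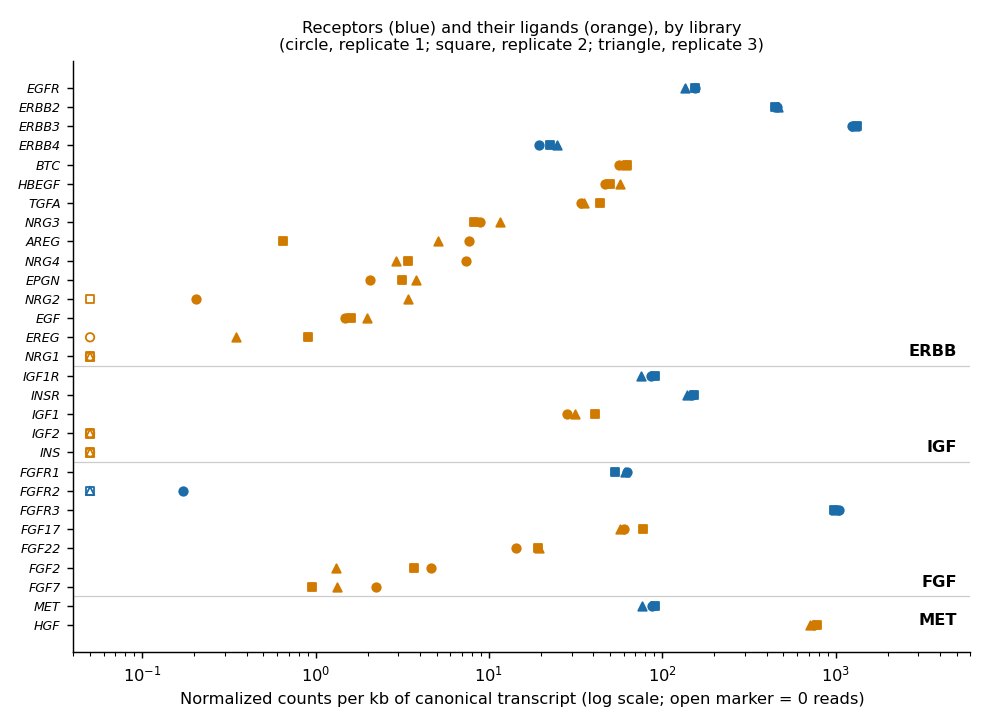
Normalized counts per kb (log scale) of the receptors (blue) and of their ligands (orange), grouped by family, with 1 marker per WT library and open markers for 0 reads. HGF lies above MET in 3 of 3 libraries, NRG1, IGF2 and INS are at 0, and only the 4 FGF ligands with the most reads are plotted.

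Downstream of the receptors, with levels by canonical length, most genes were expressed: 17 of 18 adaptors and docking proteins, 18 of 20 genes of the RAS-MAPK and PI3K-AKT core, and 22 of 23 negative regulators. Among adaptors the highest levels per kb were those of PTPN11 (the phosphatase SHP2, 1950 ± 50.5), GRB2, which links receptors to RAS activation (1490 ± 61.5), and SHC1 (987.2 ± 52.5). IRS4 was the adaptor below the threshold. In the core cascade AKT1 (2679 ± 55.9), HRAS (2016 ± 59.6) and MAP2K2, which encodes MEK2 (1797 ± 78.3), stood highest. Among negative regulators PTPN1, a phosphatase of INSR (591.8 ± 31.3), RNF41, a ubiquitin ligase of ERBB3 (577.1 ± 20.5), and SPRY4, a feedback inhibitor of RAS signalling (463 ± 2.5), stood highest, and SPRY3 was not expressed. Over all pathway lists together 102 of 164 genes were expressed, beside 47.7% of all genes counted.

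Set among 58 receptor tyrosine kinases, of which 31 were expressed, ERBB3 ranked 2nd and FGFR3 4th by level per kb. DDR1, a collagen receptor, ranked 1st at 2670 ± 105.8. EPHB4, an ephrin receptor, stood between ERBB3 and FGFR3 at 1018 ± 50.1, within the range of the FGFR3 libraries, and EPHA3 followed FGFR3 at 701.5 ± 29.6. ERBB2 ranked 7th, EGFR 13th, INSR 14th, MET 18th, IGF1R 19th, FGFR1 23rd and ERBB4 28th. These ranks hold for the canonical length. With union exons DDR1 stayed 1st (1123), FGFR3 was 2nd (888.9), EPHB4 3rd (688.6), ERBB3 4th (616.4) and ERBB2 11th (201.9), and IGF1R was the only expressed receptor of the 10 at the same rank. Of the 48 other receptor tyrosine kinases 22 were expressed, against 9 of these 10, and the 10 had been chosen by name.

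**Figure D4:**
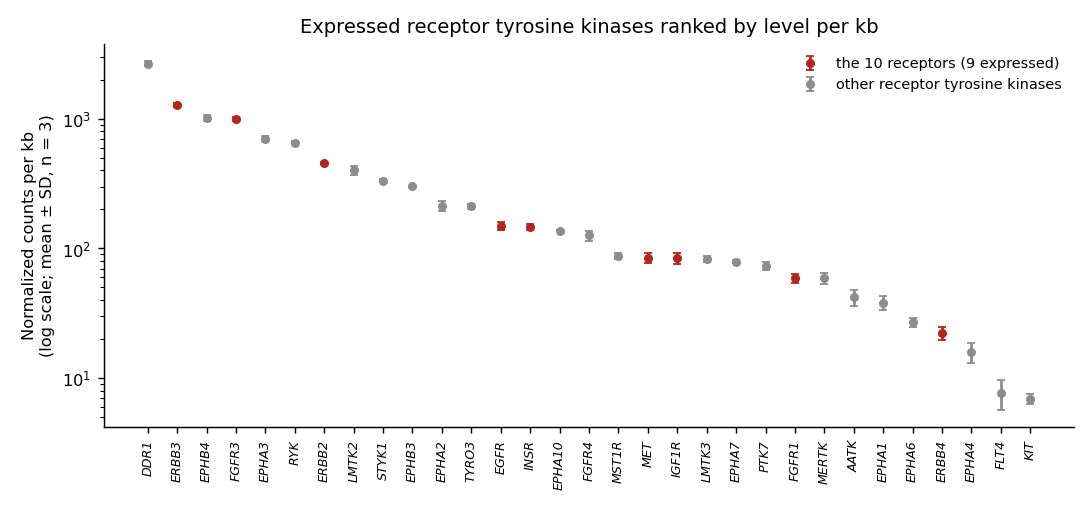
Mean normalized count per kb of canonical transcript (log scale, error bars SD, n = 3) of the 31 expressed receptor tyrosine kinases in falling order. The 9 expressed growth factor receptors (red) spread from rank 2 (ERBB3) to rank 28 (ERBB4).

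Between the WT libraries 7 of the 9 receptors tested differed by more than counting noise (chi-square test of homogeneity of the 3 read counts, adjusted over all 14646 genes that averaged 10 reads or more). The same test called 41.9% of all genes tested. Adjusted p by this test was 3.12e-05 for IGF1R, 0.000192 for ERBB3, 0.000291 for EGFR, 0.0073 for FGFR3, 0.0114 for MET, 0.0222 for INSR and 0.0264 for ERBB4. FGFR1 (adjusted p = 0.113) and ERBB2 (0.575) did not pass, and FGFR2 had too few reads to be tested. The differences were small: the highest library exceeded the lowest by 1.03-fold (ERBB2) to 1.27-fold (ERBB4). The median CV of the 9 receptors was 7.21%, beside 5.56% over all genes tested. The trended dispersion that edgeR fitted to these libraries was then added to the counting noise. With it 0 of the 9 receptors passed (adjusted p = 1 for each), beside 0.348% of all genes. That dispersion was fitted to the very libraries under test, so it held the spread being tested and few genes could pass. When chi-square values were scaled by those of genes with 10 to 50 reads, 0 of 9 passed (adjusted p from 0.288 to 0.964), beside 3.47% of all genes. That scale also came from the libraries under test, so it is not an independent check. At an unadjusted p under 0.05, 0 of the 9 passed with the dispersion added and 2 with scaled values. The shares of all genes at that threshold are not given here.

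Each of the 7 calls was lost in at least 1 of the tests that left out a library. Such tests rest on fewer libraries, so calls are lost more easily. Over all genes the 6141 calls fell to 3950, 3323 and 3447 without replicates 1, 2 and 3, and 4, 6 and 2 receptors still passed. Without replicate 3, EGFR (adjusted chi-square p = 0.99), MET (0.707), INSR (0.554), IGF1R (0.282) and ERBB4 (0.178) no longer passed. Without replicate 1, FGFR3 (0.684), ERBB4 (0.412) and ERBB3 (0.197) did not pass, and without replicate 2 INSR (0.101) did not. EGFR, IGF1R, INSR and MET were all lowest in replicate 3, by 0.13, 0.16, 0.09 and 0.15 below their mean over libraries on the log2 scale. ERBB4 was highest there, at 0.16 above its mean. Deviations moved with transcript length in the same libraries: over 14572 genes Spearman's rho between deviation and length was −0.19 in replicate 3, 0.24 in replicate 2 and −0.07 in replicate 1 (across genes, which share their library). With the median deviation at each length removed, an alternative chosen after seeing the data, EGFR, IGF1R, INSR and MET lay 0.07, 0.10, 0.02 and 0.12 below their means in replicate 3, ERBB4 lay 0.22 above, and INSR no longer passed (adjusted p = 0.561). The part of transcript length in the remaining calls was not tested further.

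**Figure D5:**
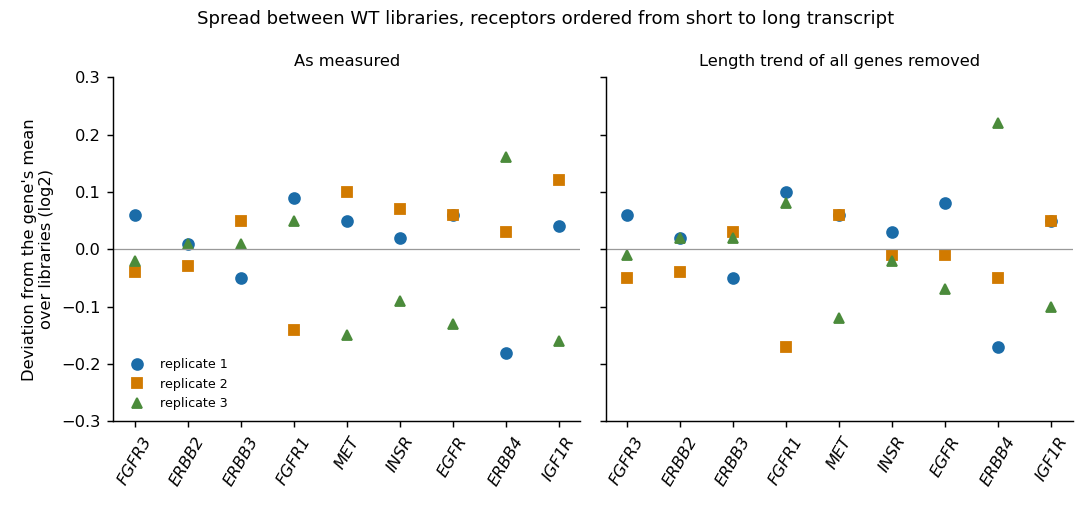
Deviation of each of the 9 expressed receptors from its mean over the 3 WT libraries (log2), with receptors ordered from short to long canonical transcript, as measured (left) and with the length trend of all genes removed (right). In the left panel replicate 3 is the lowest for MET, INSR, EGFR and IGF1R.

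The same test called 49 of 117 tested pathway genes, beside 41.9% of all genes. It called 6 with scaled chi-square values, beside 3.47% of all genes, and 0 with the edgeR dispersion added, beside 0.348%. With that dispersion 9 had an unadjusted p under 0.05, a threshold for which the share of all genes is not given here. IGF2R, the IGF2 scavenger, had the smallest adjusted p of the ligand lists (5.5e-15), with normalized counts of 4792.5, 4818.5 and 4185.1 and replicate 3 the lowest. HGF (4.41e-05) and IGF1 (5.46e-05) also passed, as did IGFBP3 (0.000139), whereas BTC (0.593), HBEGF (0.313), TGFA (0.0648), NRG3 (0.315) and FGF17 (0.0929) did not. By list, 1 of 7 tested ERBB ligands, 5 of 6 IGF ligands and binding proteins, 2 of 9 FGF ligands and coreceptors, 6 of 7 genes around HGF, 6 of 18 adaptors, 6 of 18 core genes, 11 of 22 negative regulators and 1 of 2 sheddases were called, and 11 of 28 other receptor tyrosine kinases.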

How the data were processed

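Gene-level RNA-seq values of 22Rv1 cells (WT, 3 libraries) were used. The study's methods and the submitters' processing notes name HISAT2 with a GENCODE annotation for mapping paired reads to GRCh37, HTSeq for counting and DESeq2 for normalization. The GENCODE release and strandedness are not given in the sources used here. In the deposited files the authors give a signal for each gene, which is its read count over a library's size factor, to 1 decimal. Whole reads were recovered from the spacing of these values, and 100% of the values above 0 came out whole within rounding. Adjacent rows with equal values in every library counted once, unless all values were 0. By this rule 29000 rows gave 27024 genes, with 38252744, 35675670 and 38629080 reads in replicates 1, 2 and 3. Rows at 0 in every library were therefore not merged and are part of the 27024. Symbols, positions and canonical transcripts came from GENCODE lifted to GRCh37, and 86.1% of identifiers matched. No transcript of another gene aligned to those of the receptors (minimap2 2.31).

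The receptors and pathway lists were chosen with earlier results of these data known. The text names all 10 receptors, the 3 expressed genes with the highest level per kb in each pathway list, every ligand or coreceptor of a receptor, FGFR4 and MST1R. The remaining genes around HGF, the IGF binding proteins and the listed genes below 1 CPM were added after their values were seen. The 14646 genes averaging 10 reads or more were tested by chi-square between libraries, with TMM sizes (edgeR 4.0.16, R 4.3.3) and Benjamini-Hochberg adjusted p at 0.05, after a check on simulated data. Python libraries were scipy 1.17.1, pandas 2.3.3, numpy 2.4.6 and matplotlib 3.10.9. Receptors next to each other in order were compared by an exact sign-flip permutation test. Alternatives were other scalings (DESeq2 1.42.0 among them), minimum counts, expression thresholds, transcript lengths and noise models, and leaving out each replicate. Floors of 3 reads and intervals hold for counting error alone, as reads that carry no molecular identifier are not independent molecules. With 1 condition, no test between conditions was made. Some listed genes are not reported here.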

Additional observations from a re-analysis of the deposited data

How the results depend on the processing

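The 60 receptor levels recomputed with other library scalings or without each replicate all stayed within 1 SD. This says little about stability, since rescaled levels moved little by construction. A mean over 3 libraries also cannot move by 1 SD when 1 of them is left out. The number of receptors that differed between the WT libraries was 7, and fell to 0 with chi-square values scaled by genes of 10 to 50 reads and to 0 with the edgeR trended dispersion added. Over all genes the 6141 calls fell to 508 and 51 under those settings. The edgeR dispersion was fitted to the same libraries, so the fall under it was largely set in advance. The scale of the chi-square values also came from these libraries, so the fall under that scale is not an independent check either. Leaving out each replicate in turn gave 2 to 6 receptors and 3323 to 3950 genes, with fewer samples in each test. With the length trend removed, an alternative chosen after seeing the data, 6 receptors and 5466 genes passed. Of 90 adjusted p-values recomputed for single receptors, 66 stayed on the same side of the threshold and 24 lost the call, none of them under another scaling or minimum count. Of the log2 ratios recomputed between neighbouring receptors, 29 moved by less than 1 SD, 7 by more in the same direction, and 4 reversed. Leaving out a replicate could not move these ratios by 1 SD either, so only the other lengths could. Dividing by the union of annotated exons left 4 of 10 receptors at their rank, and leaving out a replicate left 8 to 10. With union exons the log2 ratio per kb was reversed to −0.53 for ERBB3 to FGFR3, −0.47 for EGFR to INSR and −0.08 for FGFR1 to ERBB4, and leaving out a replicate gave −0.0017 (without replicate 1) to 0.04 for EGFR to INSR. Without division by length the family shares were 65.36% for ERBB3, 57.45% for INSR and 85.58% for FGFR3, and with union exons FGFR3 took 89.83%. Ratios between other pairs of genes, recomputed with other lengths after seeing the data, moved by more than 1 SD in the same direction in 36 cases, by less in 2, and reversed in 2, namely MST1 to MST1R at 0.733 without division by length and 0.757 with union exons. Without division by length ERBB3 was 27-fold of ERBB4 and 4.93-fold of EGFR, SPINT2 3.94-fold of ST14, IGFBP3 34.6-fold and IGFBP2 18.8-fold of IGF1, and BTC, HBEGF and TGFA were 0.109, 0.0825 and 0.106 of EGFR, NRG3 0.135 of ERBB4, IGF1 0.238 of IGF1R and FGF17 0.0199 of FGFR3. With a mean of at least 10 reads in place of 1 CPM, 7 ERBB ligands and 9 FGF ligands and coreceptors counted as expressed. At this depth a gene with 0 reads in a library could hold up to 3 reads. No paired analysis was possible because the files used here hold 1 group, so no replicate number is shared between groups.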
